A study of Mus musculus with 9 samples.

Results

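Cyp2b10, Cyp2b9, Cyp2b13, Cyp2a4, Cyp2a5 and Cyp2a12 are 6 mouse genes that encode cytochrome P450 enzymes of the Cyp2b and Cyp2a subfamilies. They were picked by gene name, as targets of the xenobiotic receptor CAR, at a time when their levels in the 9 libraries were already known. The same levels therefore chose the genes, and their differences between groups are given as a description, with a standard error (SE) and without a p-value. The 6 names matched 7 of 52151 entries of the gene table, and each name had 1 entry among the 26345 entries that held a known transcript and a gene name. The remaining entry, an assembled transcript labelled Cyp2a5, stayed between 0.21 and 2.38 FPKM and was not added to the gene. FPKM stands for fragments per kilobase of transcript and per library depth, so that levels of different genes can be compared per length.

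CAR, the constitutive androstane receptor encoded by Nr1i3, is a nuclear receptor of hepatocytes. Drugs such as phenobarbital release it from the cytoplasm, and with its partner RXR it then raises the transcription of genes that oxidize, conjugate and export foreign compounds. Cyp2b10 is its classical target in mouse liver. Cyp2b9, Cyp2b13 and Cyp2a4 are also known as genes with more RNA in the liver of female mice than of male mice.

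The libraries were made from mouse liver after 5 weeks of liquid diet, with 3 libraries in each of 3 groups. PF mice were pair-fed the control diet, AF mice were fed alcohol, and the third group was fed alcohol and injected with MNA at 50 mg/kg (AF with MNA). The labels put all animals at 8 weeks of age and do not spell out MNA. The labelled strain was C57BL/6 for PF and AF, while the 3 libraries of AF with MNA were labelled C57BL/7, C57BL/8 and C57BL/9. Whether these names mark different strains or an error in the labels is not given in the sources used here. The methods give male mice for PF and AF and do not cover AF with MNA, whose sex is not given either. All 8 hepatocyte markers were present, and their summed level ran from 15830 to 22800 FPKM over the 9 libraries. A transcript at 1 FPKM was covered by 5.84 to 8.30 reads per base, depending on the library. PF 3, AF 3 and AF with MNA 1 stood apart for some of the genes, and values without them are given where they matter.

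All 6 genes lie on the plus strand of chromosome 7 within 1139.8 kb (chr7:25897620-27037375, GRCm38), in the order Cyp2b10, Cyp2b13, Cyp2b9, Cyp2a4, Cyp2a5 and Cyp2a12. In the GENCODE annotation, each is a protein-coding gene with 9 or 10 exons. The stretch of 200 bases before each RefSeq transcription start is shown, because it allows the close copies among the 6 genes to be seen beside their levels (RefSeq, GRCm38.p6, plus strand, 5′ to 3′). Capitals mark the motifs TATAAA (core promoter), TTGCNNAA (C/EBP type), CAAAGTCC (HNF4 type) and AGGTCA (nuclear receptor half-site), searched on both strands. The GENCODE starts of Cyp2b10, Cyp2a4, Cyp2a5 and Cyp2a12 lie slightly upstream of the RefSeq starts, within the stretch shown.
Cyp2b10, chr7:25897458-25897657: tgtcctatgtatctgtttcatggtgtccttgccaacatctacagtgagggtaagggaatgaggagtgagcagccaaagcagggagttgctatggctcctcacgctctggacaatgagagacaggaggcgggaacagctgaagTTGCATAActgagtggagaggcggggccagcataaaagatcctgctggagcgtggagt
Cyp2b13, chr7:26061295-26061494: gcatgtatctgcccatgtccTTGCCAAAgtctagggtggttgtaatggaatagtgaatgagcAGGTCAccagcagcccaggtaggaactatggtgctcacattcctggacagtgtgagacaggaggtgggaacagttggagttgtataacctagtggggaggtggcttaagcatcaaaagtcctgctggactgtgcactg
Cyp2b9, chr7:26173209-26173408: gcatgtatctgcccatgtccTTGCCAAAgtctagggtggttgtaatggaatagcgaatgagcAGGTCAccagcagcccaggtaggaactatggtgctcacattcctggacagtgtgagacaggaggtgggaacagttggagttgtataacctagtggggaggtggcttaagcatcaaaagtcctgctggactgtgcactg
Cyp2a4, chr7:26306992-26307191: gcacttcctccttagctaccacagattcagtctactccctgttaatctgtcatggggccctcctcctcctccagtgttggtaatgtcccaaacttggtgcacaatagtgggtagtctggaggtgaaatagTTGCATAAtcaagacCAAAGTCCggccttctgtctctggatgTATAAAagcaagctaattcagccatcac
Cyp2a5, chr7:26835139-26835338: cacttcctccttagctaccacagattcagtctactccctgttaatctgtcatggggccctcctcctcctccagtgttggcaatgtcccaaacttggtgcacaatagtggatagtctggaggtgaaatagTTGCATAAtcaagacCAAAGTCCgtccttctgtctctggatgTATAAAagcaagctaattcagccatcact
Cyp2a12, chr7:27028890-27029089: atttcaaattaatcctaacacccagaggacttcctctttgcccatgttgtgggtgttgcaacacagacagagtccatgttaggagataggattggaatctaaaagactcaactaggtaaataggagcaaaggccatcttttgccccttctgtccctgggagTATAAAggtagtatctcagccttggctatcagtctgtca

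Over the full window of 300 bases (250 before and 50 after the start), the Cyp2b9 and Cyp2b13 promoters were the same at 298 of 300 bases, and those of Cyp2a4 and Cyp2a5 at 294 of 299 aligned bases. The Cyp2b10 promoter shared 76.1% of 289 aligned bases with either of the other Cyp2b genes. TTGCNNAA was found in 5 of the 6 windows, in every gene but Cyp2a12, against 10.8% of 32851 mouse promoters. It lay 58 bases before the start in Cyp2b10, 70 in Cyp2a4 and 71 in Cyp2a5, but 180 in Cyp2b9 and Cyp2b13. TATAAA was found in the 3 Cyp2a genes (13.6% of all promoters), and CAAAGTCC in Cyp2a4 and Cyp2a5 alone among the 6 (1.42%). AGGTCA was found once in Cyp2b9, Cyp2b13, Cyp2a4 and Cyp2a5 (16.3%), in the last pair on the opposite strand after the start. No window held the STAT type motif TTCNNNGAA (8.3% of promoters) or the half-site AGGTCA repeated in the same direction after any 4 bases (0.0152%), the spacing known for CAR and PXR. This says only that these letters are absent from these windows.

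Near-identical copies can share reads, and the counting may split them between genes. The longest coding transcripts of Cyp2a4 and Cyp2a5 were identical at 98.3% of aligned bases, and 11.2% of the 100-base windows of Cyp2a4 also occurred in Cyp2a5. For Cyp2b9 and Cyp2b13 the identity was 91.7%, with 1.18% of windows shared. No 100-base window was shared between any other pair. The level of Cyp2a4 beside the far more abundant Cyp2a5 is thus uncertain, and so, to a lesser degree, are those of Cyp2b9 and Cyp2b13.

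The first comparison, AF against PF, asked how alcohol feeding moved the 6 genes. All 6 were higher in every AF library than in any PF library. A gene was called, after the thresholds of the study, when limma's unadjusted p was below 0.05 and the log2 ratio of the group means lay beyond 1. By this rule 5 of the 6 genes were called, all higher in AF, while 1.95% of the 12268 entries tested were called higher and 4.3% in either direction. Groups that did not overlap with AF higher were found for 8.18% of entries. Since these values chose the genes, nothing is read from the counts. The count of 5 genes was the same without each library in turn.

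**Figure D1:**
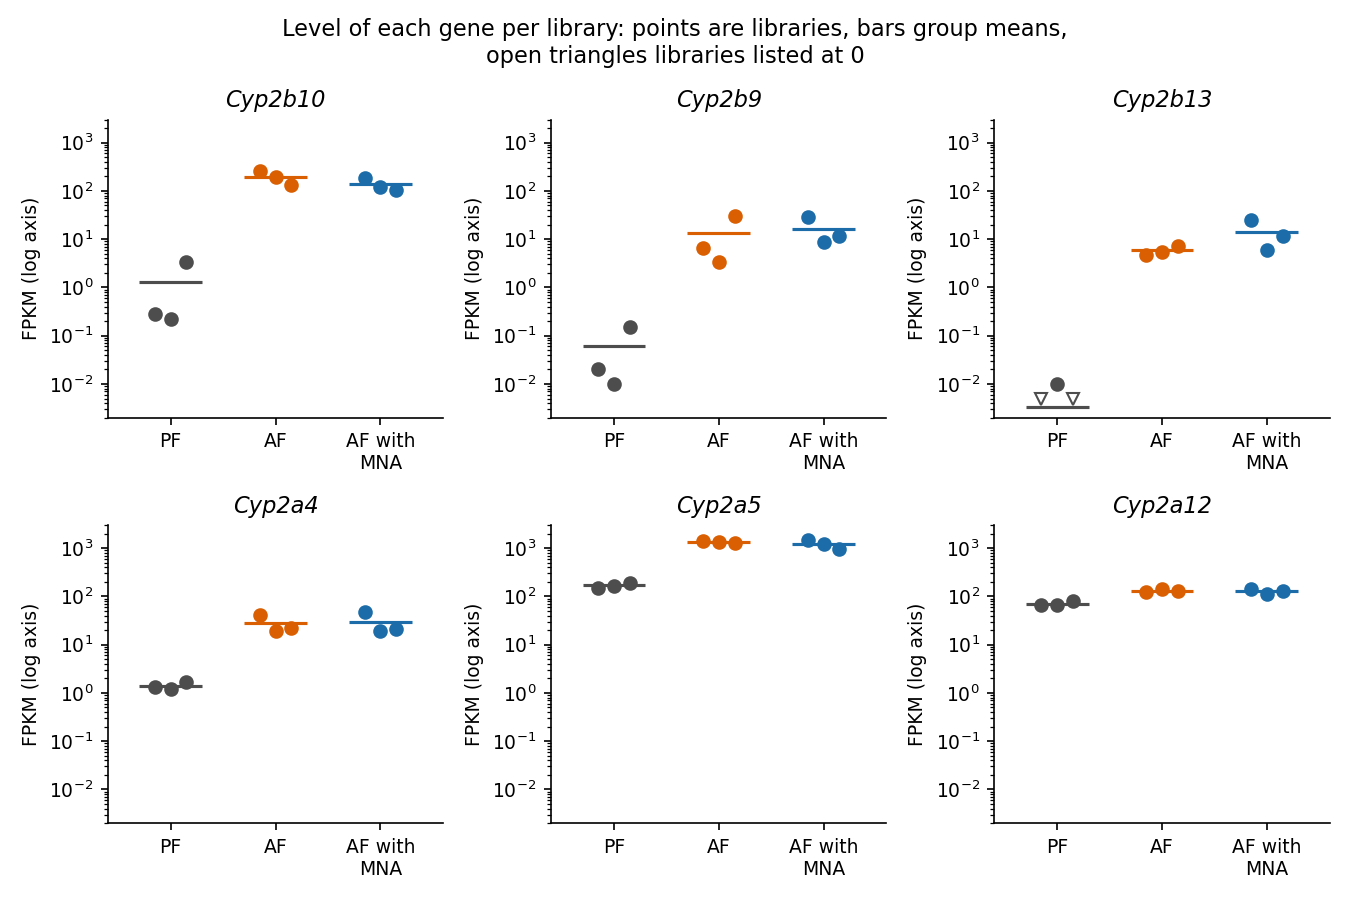
FPKM of each gene on a log axis in the 3 PF, 3 AF and 3 AF with MNA libraries. Points are libraries, bars are group means and open triangles are libraries listed at 0. The PF points lie below all points of the other groups in each panel, from near 0 for Cyp2b13 to 189.15 FPKM for Cyp2a5.

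Cyp2b10, the classical CAR target, was listed at 0.28, 0.22 and 3.33 FPKM in PF 1 to 3. In AF 1 to 3 it stood at 259.56, 194.66 and 132.88 FPKM. PF 3 was 15.1-fold above PF 2, yet far below every AF library. The mean rose from 1.28 ± 1.78 to 195.7 ± 63.3 FPKM (SD, n = 3), a 153-fold difference (log2 ratio 7.26, or 6.65 with SE 0.53 for the difference on the log2(FPKM + 1) scale). Without PF 3 the log2 ratio was 9.61. Ranked by its group mean among all known entries, Cyp2b10 went from place 9116 in PF to place 140 in AF.

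Cyp2b9, a P450 of female-predominant expression, was listed at 0.02, 0.01 and 0.15 FPKM in PF. In AF it stood at 6.66, 3.33 and 30.72 FPKM. AF 3 was 9.23-fold above AF 2, the widest spread of any member within AF. The log2 ratio of the means was 7.82, and the difference on the log2(FPKM + 1) scale was 3.26 (SE 0.68). The ratio was 6.38 without AF 3 and 9.82 without PF 3. AF 3 also had the highest summed level of assembled intron transcripts, 9433 FPKM against 3254 to 4937 FPKM in the PF libraries and 3802 and 4239 FPKM in AF 1 and AF 2. The part of this signal in the level of Cyp2b9 was not tested.

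Cyp2b13, the closest copy of Cyp2b9, was listed at 0, 0.01 and 0 FPKM in PF. In AF it stood at 4.77, 5.48 and 7.36 FPKM, with far less spread than Cyp2b9. No fold is given, because 2 of the 3 PF libraries were at 0. The difference on the log2(FPKM + 1) scale was 2.76 (SE 0.16). With the 2 promoters nearly identical, the ratio of Cyp2b9 to Cyp2b13 was 1.4, 0.608 and 4.17 in AF 1 to 3.

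Cyp2a4, a steroid hydroxylase, was present at 1.34, 1.22 and 1.66 FPKM in PF. In AF it stood at 41.73, 18.88 and 22.36 FPKM, with AF 1 the highest. The mean rose 19.7-fold, from 1.41 ± 0.227 to 27.7 ± 12.3 FPKM (SD, n = 3), with a log2 ratio of 4.30 and a difference of 3.50 (SE 0.29) on the log2(FPKM + 1) scale.

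Cyp2a5, which hydroxylates coumarin, was abundant without alcohol, at 152.52, 162.49 and 189.15 FPKM in PF. In AF it stood at 1414.04, 1337.04 and 1298.1 FPKM, the tightest AF group of the 6 genes (coefficient of variation 4.37%). The mean rose 8.03-fold (log2 ratio 3.01, SE 0.16), from 168.1 ± 18.9 to 1349.7 ± 59.0 FPKM. In rank of the group mean Cyp2a5 went from place 146 to place 18. Its gain in FPKM exceeded those of the 5 other genes combined, and it made up 68.8% to 70.6% of the summed level of the 6 genes in PF and 76.5% to 80.0% in AF. That sum went from 220.4 to 275.1 FPKM in PF to 1623 to 1849 FPKM in AF.

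Cyp2a4 amounted to 0.879%, 0.751% and 0.878% of Cyp2a5 in PF and to 2.95%, 1.41% and 1.72% in AF. Every AF library lay above every PF library in this share, although the promoters of the pair differ at 5 aligned bases. The share was 3.26%, 1.57% and 2.20% in AF with MNA, again above all PF libraries.

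Cyp2a12, a steroid hydroxylase too, was present at 66.27, 66.09 and 80.78 FPKM in PF. In AF it stood at 121.89, 138.65 and 132.08 FPKM, so the groups did not overlap. The mean rose 1.84-fold (log2 ratio 0.88, SE 0.14), just under the threshold of 1, and it was the gene of the 6 that was not called.

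The order of the levels changed between the groups. In PF it was Cyp2a5, Cyp2a12, Cyp2a4, Cyp2b10, Cyp2b9 and Cyp2b13, where Cyp2a4 and Cyp2b10 overlapped, as did Cyp2b9 and Cyp2b13. In AF, Cyp2b10 moved to the place after Cyp2a5, with a range that overlapped that of Cyp2a12. Cyp2a4, Cyp2b9 and Cyp2b13 followed, each overlapping its neighbour in this order.

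**Figure D2:**
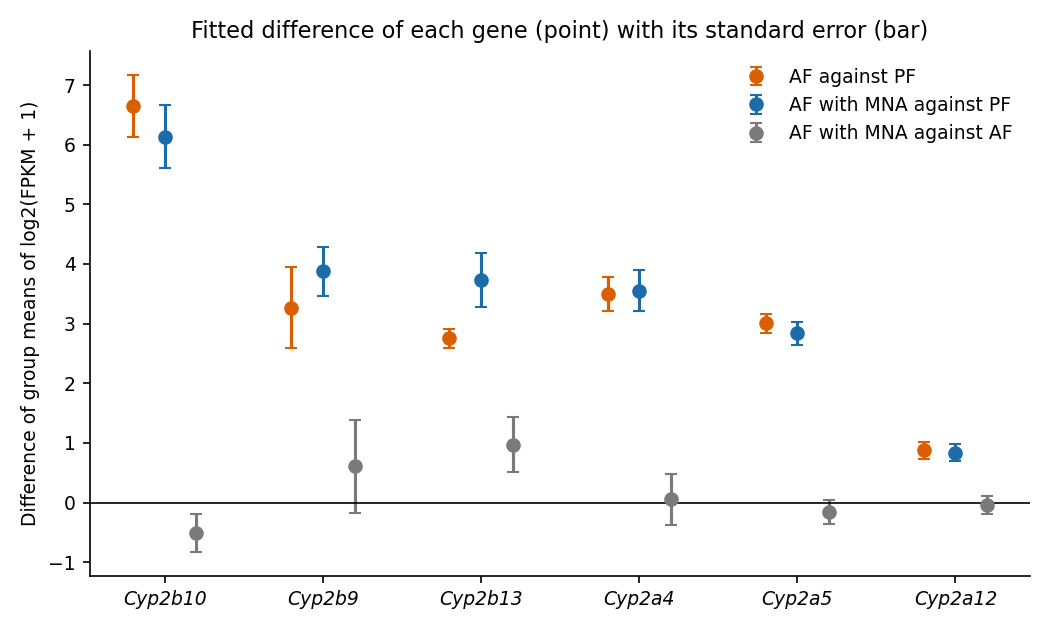
Difference of the group means of log2(FPKM + 1) for each gene in the 3 comparisons, with the fitted standard error as a bar. Both comparisons against PF lie well above 0 for all 6 genes, from 0.84 for Cyp2a12 to 6.65 for Cyp2b10, and the points of AF with MNA against AF lie between -0.51 and 0.97.

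The second comparison, AF with MNA against AF, asked whether MNA injection changed the level of the 6 genes under alcohol. None of the 6 was called by limma, where 1.98% of the 12214 entries tested were called. An unadjusted p under 0.05 was found for 0 of the 6, against 637 of the 12214 entries. No gene had groups that did not overlap, against 10.1% of entries. Since the genes were chosen with these values known, nothing is read from these counts either. Cyp2b10 stood at 182.75, 121.82 and 103.45 FPKM in AF with MNA 1 to 3, a mean of 136.0 ± 41.5 FPKM (SD, n = 3). Its mean was 0.695 of the AF mean (log2 ratio -0.53, difference -0.51 with SE 0.31). Cyp2a5 stood at 1477.22, 1210.36 and 978.51 FPKM, with a log2 ratio of -0.14 (SE 0.20). Cyp2a4 at 48.17, 18.98 and 21.53 FPKM and Cyp2a12 at 144.27, 112.71 and 126.6 FPKM had log2 ratios of 0.10 (SE 0.43) and -0.03 (SE 0.15). With 3 libraries in a group, these standard errors leave room for moderate differences in either direction.

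Cyp2b9 and Cyp2b13 varied most in this comparison. Cyp2b13 stood at 25.53, 6.01 and 11.63 FPKM in AF with MNA, 2.45-fold the AF mean (log2 ratio 1.29, difference 0.97 with SE 0.46). The lowest of these libraries lay below AF 3, and the log2 ratio was 0.59 without AF with MNA 1. Cyp2b9 stood at 29.47, 8.85 and 11.46 FPKM, with a log2 ratio of 0.29 (difference 0.61, SE 0.78). The log2 ratio was 1.73 without AF 3 and -0.42 without AF with MNA 1. Cyp2b13 was called higher in a fit of all 9 libraries and without AF with MNA 2, and Cyp2b9 without AF 3. AF with MNA 1 had the highest level of all 6 genes in its group, and its summed intron transcripts, at 8934 FPKM, were also above those of the other libraries of the group (2477 and 3473 FPKM).

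The third comparison set AF with MNA against PF, and it shares its PF libraries with the first and its other libraries with the second. The 5 genes called in AF were called again, while 3.89% of the 12276 entries tested were called and 1.94% were called higher. Nothing is read from this count, for the same reason as above. The fold over the PF mean was 107 for Cyp2b10, 277 for Cyp2b9, 7.27 for Cyp2a5 and 1.80 for Cyp2a12, and the log2 ratio of Cyp2a4 was 4.39. The difference of Cyp2b13 on the log2(FPKM + 1) scale was 3.73 (SE 0.45). The log2 ratio of Cyp2b10 was 6.74, and 9.09 without PF 3. That of Cyp2b9 was 8.11, and it was 10.11 without PF 3 and 7.40 without AF with MNA 1.

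Cyp2b9 also gave circular RNA, in which a back-splice joins the end of an exon to the start of an earlier or the same exon. The circRNA table held 4 circles of Cyp2b9, with 0 back-splice reads in each PF library. The AF libraries had 6, 4 and 12 reads, and those of AF with MNA had 25, 3 and 0. A circle of 4 exons, chr7:26198418-26201232 on the plus strand, held 36 of the reads. The libraries with the most reads, AF with MNA 1 and AF 3, were those with 29.47 and 30.72 FPKM of Cyp2b9. A count of 0 in PF allows up to 0.153% to 0.163% of a library's back-splice reads, against 0.306%, 0.22% and 0.583% seen in AF. In AF with MNA the shares were 0.982%, 0.132% and 0%, so that its libraries 2 and 3 lay below that limit. Cyp2b10 had 1 circle, with 2 reads in AF with MNA 2, although its linear RNA was far more abundant than that of Cyp2b9. These floors cover counting error only, and no circle of the other 4 genes was listed.

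Around the 6 genes, the neighbouring entries were compared in the same fits. Of 9 other P450 entries within 500 kb of the stretch, 4 were tested, and 3 of them were called higher in AF against PF. Cyp2a21-ps, a pseudogene next to Cyp2a5, stood at 0.74, 0.85 and 0.77 FPKM in PF and at 8.46, 6.57 and 8.48 FPKM in AF (log2 ratio 3.32, difference with SE 0.13, limma adjusted p = 0.00263). Cyp2a22 stood at 0.58, 0.24 and 0.52 FPKM in PF and at 7.1, 1.53 and 7.75 FPKM in AF (adjusted p = 0.204), and Cyp2g1 at 0.17, 0.37 and 0.98 against 1.2, 1.24 and 2.17 FPKM (adjusted p = 0.325). The call of Cyp2g1 was lost without PF 1, PF 2 or AF 3. Cyp2a22 and Cyp2g1 failed the adjusted threshold, and pseudogene and P450 copies can share reads with the members. Cyp2f2, beyond Cyp2a12, stood at 311.02 to 340.55 FPKM in AF against 334.19 to 382.56 FPKM in PF (adjusted p = 0.801). Of the entries too low to be tested, Cyp2s1 stayed between 0.01 and 0.13, Cyp2t4 between 0.08 and 0.33 and Cyp2b19 between 0 and 0.01 FPKM. The pseudogenes Cyp2b27-ps and Cyp2b26-ps were at 0 in all PF libraries and reached at most 0.22 and 0.08 FPKM in the other groups. Of 29 other entries tested in the flanks, 0 were called higher and 1, the pseudogene Gm15495, lower. Blvrb, which encodes a biliverdin reductase, was named after its values were seen. It stood at 12.58, 10.33 and 11.71 FPKM in PF, 23.28, 18.49 and 24.48 FPKM in AF and 27.13, 25.74 and 23.08 FPKM in AF with MNA. It was not called in AF against PF (log2 ratio 0.94, limma adjusted p = 0.107) and was called higher in AF with MNA against PF (1.13, adjusted p = 0.0298). None of the 11 other entries inside the stretch reached the minimum level for testing in AF against PF.

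**Figure D3:**
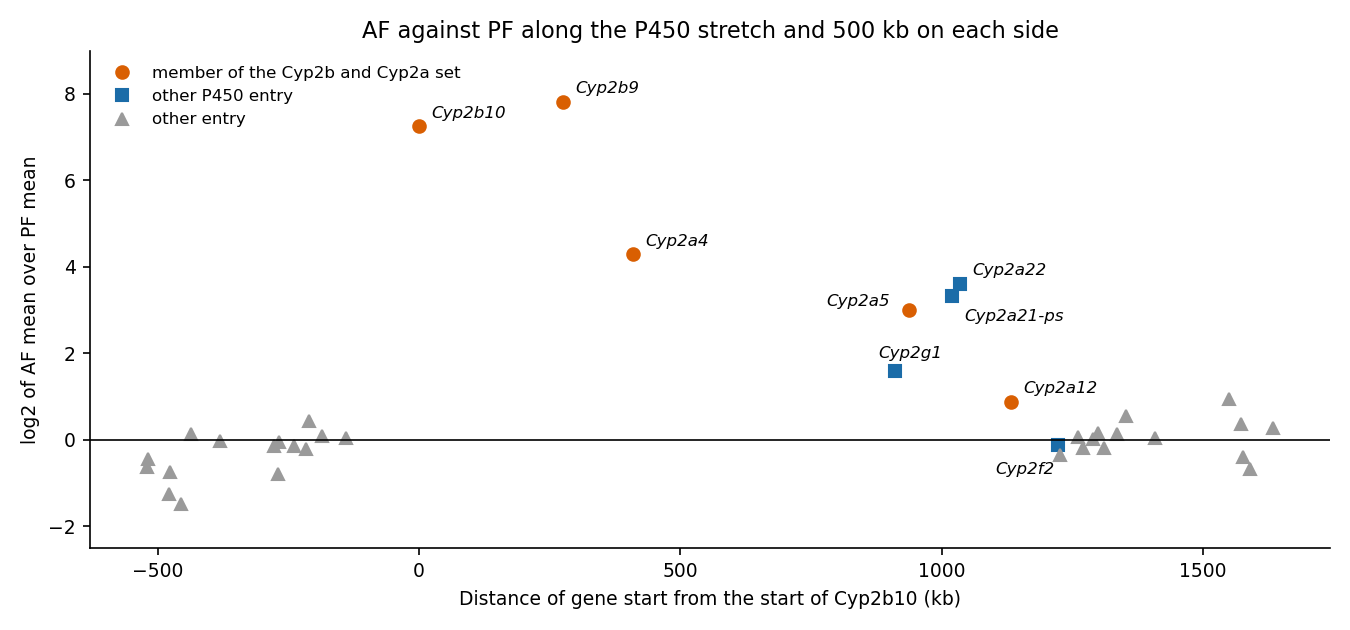
Log2 ratio of the AF mean to the PF mean for each tested entry along the P450 stretch, against the distance of its start from that of Cyp2b10 in kb. Cyp2b13 is left out because PF was at or near 0, and Cyp2f2 lies at -0.12. The flanking genes lie between -1.50 and 0.94, and every other P450 entry but Cyp2a12 (0.88) lies above them.

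The genes most like each member across the 9 libraries were found by the root mean square (RMS) difference of centred log2(FPKM + 1), among 12246 other entries, the members themselves left out. Cyp2c29, a CAR-responsive P450, was among the 3 nearest genes of every member but Cyp2a12. It stood at 32.09 to 63.03 FPKM in PF, with AF at 443.14 to 489.01 FPKM and AF with MNA at 326.01 to 523.79 FPKM. For Cyp2a5 the nearest gene was Gsta2, a glutathione transferase (RMS difference 0.24), followed by Gstm4 (0.28) and Cyp2c29 (0.30). For Cyp2a4 it was the non-coding gene Gm38357 (0.40), for Cyp2b9 also Gm38357 (0.82), for Cyp2b13 Cyp2c29 (0.63) and for Cyp2b10 Gsta2 (1.62). Gm38357 was among the genes the study had selected from these libraries. Cyp2a22 was among the 3 nearest of Cyp2b9 and Cyp2b13. Cyp2a12 lay nearest to Tcn2, which encodes the cobalamin carrier transcobalamin (0.13). Seen from one side, some members lay nearer to another member than to any of these entries. This held for Cyp2b9 towards Cyp2b13 (0.65), Cyp2b13 towards Cyp2a4 (0.57) and Cyp2b10 towards Cyp2a4 (1.46). It did not hold in reverse, as Cyp2b13 lay nearer to Cyp2c29 (0.63) than to Cyp2b9, and Cyp2a4 was nearest to Gm38357 (0.40). Among the members, Cyp2a4 and Cyp2a5 were closest (0.46), and Cyp2b10 and Cyp2a12 farthest apart (2.67).

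Beyond the 6 genes, 36 other CAR target genes were listed, of which 30 were tested in AF against PF. By the same rule, 17 were called higher and 0 lower, and 7 passed an adjusted p of 0.05, all higher. Over all entries, 1.95% were called higher and 0.326% passed that adjusted threshold. The list was chosen with earlier results of these data known, so it is not independent evidence of its direction. The median log2 ratio of the list was 1.21, beside -0.03 over all entries tested. The largest were Abcc4, an export pump (0.25 to 0.32 FPKM in PF, 5.04 to 7.43 FPKM in AF, log2 ratio 4.40, limma adjusted p = 0.00293), Gsta2 (3.96, adjusted p = 0.00515), Cyp2c29 (3.22, adjusted p = 0.0073), Cyp2c55 (2.96, adjusted p = 0.0119) and the stress gene Gadd45b (2.93, adjusted p = 0.194, and 2.29 without AF 2). Cyp2b10 and Cyp2b9 thus had larger log2 ratios of the means than any other tested target, and Cyp2a5 lay within the range of the list. On the fitted log2(FPKM + 1) scale, where low PF levels weigh less, the difference of Cyp2b9 was 3.26 (SE 0.68), beside 3.32 for Gsta2 and 3.25 for Cyp2c29. Por, the electron donor of P450 enzymes, had a log2 ratio of 0.83 (adjusted p = 0.325). Between AF with MNA and AF, 0 of 31 were called, 1 had an unadjusted p under 0.05, and the median was -0.09. In AF with MNA against PF, 15 were called higher and 0 lower, where 1.94% of all entries were called higher. Of 13 tested Cyp2c genes, 6 were called higher in AF and 2, Cyp2c67 (log2 ratio -2.05, adjusted p = 0.0831) and Cyp2c69 (-1.08, adjusted p = 0.361), lower. Of those called higher, Cyp2c29, Cyp2c37, Cyp2c50, Cyp2c54 and Cyp2c55 are also on the CAR target list, and only Cyp2c70 is not, so the counts overlap. Cyp2c69 was no longer called without PF 2, PF 3, AF 1 or AF 2, with log2 ratios of -1.02 to -0.83. Of 4 tested Cyp3a genes, Cyp3a59 (2.50, adjusted p = 0.0328) and Cyp3a11 (1.43, adjusted p = 0.121) were called higher. Cyp3a11 is on the CAR target list too.

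The receptor itself was less uniform. Nr1i3 stood at 11.31, 16.02 and 12.12 FPKM in PF and at 14.18, 12.66 and 54.1 FPKM in AF, so that AF 3 alone lay above PF. AF 3 was also the library with the most intron transcripts. It was not called in AF against PF (log2 ratio 1.04, limma adjusted p = 0.666), and the log2 ratio was 0.03 without AF 3. It stood at 25.79, 47.22 and 18.31 FPKM in AF with MNA, above all PF libraries (log2 ratio 1.21, called, limma adjusted p = 0.273), but the log2 ratio was 0.75, short of the threshold of 1, without AF with MNA 2, and the call was also lost without PF 1 or PF 3. The order of Nr1i3 among the AF libraries was not that of Cyp2b10, whose lowest AF value was in AF 3. Nr1i2, which encodes the related receptor PXR, and Rxra, the partner, had log2 ratios of -0.16 and -0.19 in AF against PF (adjusted p = 0.855 and 0.712). Of the 21 tested genes of CAR, its partners and co-regulators, 0 were called higher and 1, the chaperone Hsp90aa1, lower in AF (log2 ratio -1.16, adjusted p = 0.0999). In AF with MNA against AF the single call was Foxa2, a hepatocyte transcription factor, at 0.93 to 1.15 FPKM in AF and 2.42 to 9.69 FPKM in AF with MNA (log2 ratio 2.30, limma adjusted p = 0.94). Its log2 ratio was 1.49 without AF with MNA 2. Egfr, the receptor of epidermal growth factor, was called lower in AF with MNA against PF, at 6.44, 11.84 and 13.82 FPKM against 22.01, 21.06 and 24.15 FPKM (log2 ratio -1.07, adjusted p = 0.188), but not without AF with MNA 1 (-0.80). In AF, Egfr stood at 15.23, 18.24 and 10.29 FPKM, also below every PF library, and overlapped AF with MNA.

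**Figure D4:**
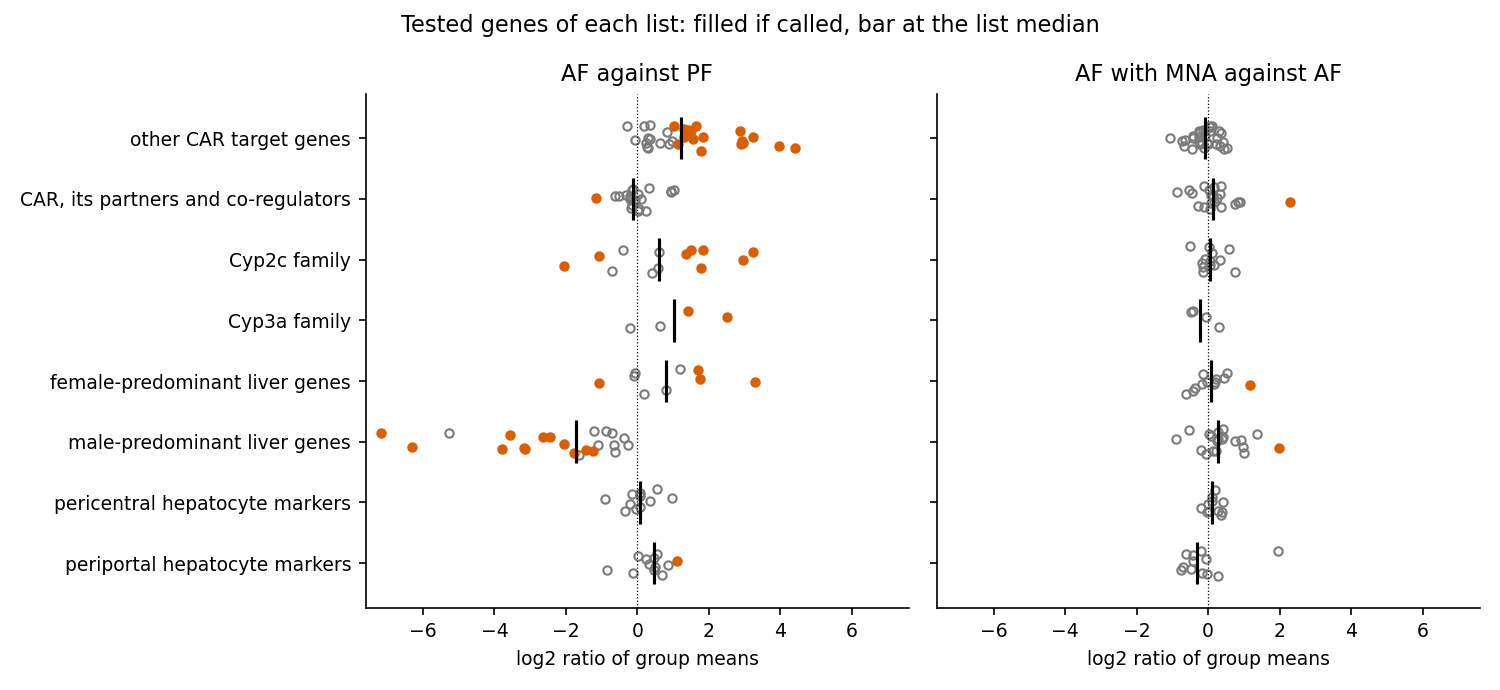
Log2 ratio of group means of each tested gene in 8 lists, without the 6 members, for AF against PF (left) and AF with MNA against AF (right). Filled points passed the rule of unadjusted p and fold, and bars mark list medians, which in AF against PF were 1.21 for other CAR targets and -1.71 for male-predominant genes.

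Since Cyp2b9, Cyp2b13 and Cyp2a4 are female-predominant genes, other genes that differ between the sexes in mouse liver were set beside them. Of 22 male-predominant genes tested in AF against PF, 0 were called higher and 12 lower (2.35% of all entries were called lower), with 6 passing the adjusted threshold and a median log2 ratio of -1.71. The list had 26 names, and 8 of them were also named by the study from these libraries, so it is not independent evidence of its direction. Among the called genes, the largest falls were those of Hsd3b5, a steroid-metabolizing enzyme (11.05 to 27.64 FPKM in PF and 0.06 to 0.17 in AF, log2 ratio -7.17, limma adjusted p = 0.00766), Mup21 (-6.30, adjusted p = 0.0103), Elovl3 (-3.80, adjusted p = 0.0073), Cyp4a12b (-3.56, adjusted p = 0.0283) and Serpina1e (-3.16, adjusted p = 0.11). Without AF 2, the log2 ratio of Serpina1e was -4.01 and that of Mup21 -6.95, and without PF 2 that of Mup21 was -5.71. Of 9 female-predominant genes tested, 3 were called higher and 1 lower, and 0 passed limma's adjusted threshold (4 had an unadjusted p under 0.05). The 3 were Cux2, Fmo2 and Cyp17a1, and 1 gene was called higher without AF 1 and 0 without PF 1. The gene called lower was Cyp2c69, whose loss without single libraries is given with the Cyp2c genes. In AF with MNA against AF, 1 gene of each list was called, both higher, Acot3 among the female-predominant genes and Elovl3 among the male-predominant genes (adjusted p = 0.94 for each). The call of Acot3 was lost without AF 1 or AF 2, and that of Elovl3 when any single library except AF with MNA 1 was left out. Without AF with MNA 1, 7 male-predominant genes were called higher. Against PF, 10 male-predominant genes were called lower in AF with MNA, and Acot3 was called higher (adjusted p = 0.134).

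These lists also differed among libraries of a group. The summed level of the male-predominant genes was 1946 and 3290 FPKM in AF 1 and AF 3 but 9624 FPKM in AF 2, and 2168 FPKM in AF with MNA 1 but 8174 and 8752 FPKM in the other 2 libraries of that group. All PF libraries lay at 12770 to 21060 FPKM. The Mup genes made up most of this sum in every library, such as Mup7 with 4373.5 of the 9624 FPKM in AF 2. Single genes of the list differed. Within AF, Slco1a1, Elovl3 and Cyp2d9 were highest in AF 2, while Cyp2u1, Bcl6, Keg1 and Selenbp2 were lowest there. The summed female-predominant genes were 51.32 and 43.68 FPKM in AF 1 and AF 3, 25.25 FPKM in AF 2, and 75.3 FPKM in AF with MNA 1 against 32.25 and 34.02 FPKM. PF stood at 13.81, 20.04 and 26.98 FPKM, so PF and AF overlapped. Cyp17a1 alone gave 22.93 of the 51.32 FPKM in AF 1 and 31.85 of the 75.3 FPKM in AF with MNA 1. AF 2, with the highest male-predominant sum of its group, held the lowest AF values of Cyp2b9 and Cyp2a4. But the lowest AF value of Cyp2b13 was in AF 1, which had the lowest sum (Cyp2b13 at 4.77 FPKM, against 5.48 in AF 2 and 7.36 in AF 3). AF with MNA 1, with the lowest male-predominant sum of its group, held the highest values of all 3 genes there. Cyp2b10 and Cyp2a5 were also highest in AF 1 and AF with MNA 1, whereas Cyp2a12 was lowest in AF 1 and highest in AF with MNA 1. The relation was not tested.

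Markers of liver zones and of other cell types were compared because the mix of cells can differ between whole liver samples, and in such samples fewer cells of a type and less RNA per cell cannot be told apart. Of 11 pericentral hepatocyte markers, 0 were called in AF against PF (3 had an unadjusted p under 0.05), with summed levels of 4351 to 5129 FPKM in PF and 4063 to 4642 FPKM in AF. Single markers went both ways. Cyp1a2 and Slc1a2 were higher in every AF library than in any PF library, and Gulo, Cyp2e1 and Rgn were lower. Cyp1a2 is also on the CAR target list. Of 12 periportal markers 1, Sds, was called higher (limma adjusted p = 0.307; not called without PF 1 or AF 2), with sums of 1425 to 1835 and 1954 to 2506 FPKM. The markers of Kupffer cells and macrophages, 1 of 7 called higher (Marco, adjusted p = 0.365; not called without PF 2, PF 3, AF 1 or AF 2), summed to 65.4 to 79.6 FPKM in PF and 51.5 to 95.7 FPKM in AF. Marco was also called higher in AF with MNA against PF (log2 ratio 1.575). That call held without each library in turn but did not pass the adjusted threshold. None of 8 endothelial, 8 stellate cell and 3 cholangiocyte markers was called, with 2, 4 and 1 genes at an unadjusted p under 0.05. The summed levels of endothelial markers were 30.17 to 37.98 FPKM in PF, 37.24 to 51.91 FPKM in AF and 45.54 to 51.82 FPKM in AF with MNA, and in AF with MNA against PF 5 of the 8 had an unadjusted p under 0.05 and 0 were called by limma. All 8 cholangiocyte markers together summed to 6.22 to 6.57 FPKM in PF, 7.58 to 12.1 FPKM in AF and 5.03 to 8.41 FPKM in AF with MNA, so that every AF library lay above every PF library. The stellate cell markers overlapped between PF (19.69 to 25.77 FPKM) and AF (15.48 to 24.8 FPKM). The 8 lymphocyte and neutrophil markers summed to at most 3.01 FPKM in any library, with 1 tested and not called. Of the general hepatocyte markers 1 of 8, Tat, was called higher (adjusted p = 0.393), but not without PF 1, PF 3, AF 1 or AF 2. In AF with MNA against AF no gene of these lists was called by limma, and 2 periportal markers had an unadjusted p under 0.05. The part of these cell types in the levels of the P450 genes was not tested.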

How the data were processed

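Mouse liver RNA was analysed as 9 libraries, with ribosomal RNA removed, strand kept per the methods, and both ends sequenced. The sources used here do not say if a library held 1 animal or several. Whether counting used strand is not given in the sources used here. The authors deposited gene levels as FPKM, made with StringTie 1.3.4 after HISAT2 alignment, per the methods and the submitters' processing notes, which also name cutadapt 1.9, TopHat and edgeR. The authors' lncRNA table gives FPKM and read coverage, a signal that is not scaled for depth, and their circRNA table gives back-splice read counts. No genome build is given in the sources used here. Of 7879 known lncRNA transcripts, 7841 were found in GENCODE M21 (GRCm38) and 7708 had the same start and end, so GRCm38 positions were used. Gene counts were not analysed here.

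For each comparison, limma 3.58.1 (R 4.3.3) was run on entries that averaged 0.5 FPKM or more in its 6 libraries, on log2(FPKM + 1), with an intensity trend and Benjamini-Hochberg adjustment. A fold change is the ratio of group means of FPKM, and its standard error is that of the fitted difference of log2(FPKM + 1), which understates changes of low genes. A gene was called at an unadjusted p below 0.05 and a log2 ratio beyond 1. P-values measure the spread between these libraries. The fit was tested on simulated data with known changes. The members and lists were chosen with earlier results of these data known. Named genes of a list were among its up to 5 called genes with the largest ratio in each direction, and Nr1i3, Nr1i2, Rxra and neighbouring P450 genes were named in any case. Por was named after its values were seen. Motifs and identities were computed with Python 3.11.15 and Biopython 1.88 from RefSeq promoters and GENCODE transcripts. Protein sequences were not used here, and 1 gene of the female-predominant list is not reported here and was left out of its counts and sums. Alternatives were a pseudocount of 0.1, median scaling, no filter or 2 FPKM, no trend, all 9 libraries in a single fit, a replicate block, each library left out, and the fitted difference as the fold. Replicate numbers are shared by the groups in the labels, and they did not pair the libraries (correlations of deviations of same-numbered libraries reached at most 0.062).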

Additional observations from a re-analysis of the deposited data

Results flagged for a closer look

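Back-splice reads of Cyp2b9 circRNAs were seen outside the gene table, at a total of 22 reads in the 3 AF libraries and 28 in the 3 AF with MNA libraries, against 0 in PF. In AF they were spread over all 3 libraries, while 25 of the 28 reads in AF with MNA came from its library 1 and 0 from its library 3. The difference between groups was not tested.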

How the results depend on the processing

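The count of members called was 5 in AF against PF and 5 in AF with MNA against PF under every alternative run, and 0 or 1 in AF with MNA against AF. No called member changed direction. Counts over all entries depended strongly on the filter. With any value above 0 admitted, the entries called by unadjusted p and fold went from 527 to 1183 in AF against PF, from 242 to 676 in AF with MNA against AF and from 477 to 1105 in AF with MNA against PF. With a mean of at least 2 FPKM they went to 265, 81 and 228, and with the fitted difference as the fold to 249, 99 and 229. By adjusted p, the 40, 6 and 53 entries became 25, 2 and 22 with any value above 0, and the 6 became 2 at 2 FPKM. With all 9 libraries in a single fit, 86 and 0 passed in the first and second comparison. With the replicate block, which pairs nothing here, 18, 1 and 0 passed. Leaving out a library in turn gave 25 to 47 entries by adjusted p and 516 to 764 by unadjusted p and fold in AF against PF, 6 to 13 and 211 to 367 in AF with MNA against AF, and 24 to 47 and 467 to 545 in AF with MNA against PF. Among the members, a pseudocount of 0.1 took the difference of Cyp2b13 in AF against PF from 2.76 to 5.83 and that of Cyp2b9 from 3.26 to 5.91. The causes of these shifts were not tested, except that fewer entries are tested under a stricter filter. With 3 libraries a group, the precision is set by their spread, and levels under 0.1 FPKM rest on few reads.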

Other observations

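The lncRNA transcripts of the stretch were not tested for differences between groups. Gm44963, a lncRNA on the minus strand whose start overlaps that of Cyp2a4 head to head (chr7:26304421-26307286, GRCm38), stood at 0.093, 0.15 and 0.07 FPKM in PF, 0.376, 0.393 and 0.859 FPKM in AF and 0.689, 0.235 and 0.267 FPKM in AF with MNA. All libraries of the other groups lay above PF, although the entry was under the minimum level for testing in the gene table. The libraries kept the strand of the RNA, per the methods, but whether counting used it is not given in the sources used here, so the split of reads between Gm44963 and Cyp2a4 in the overlap is uncertain. An unnamed transcript of 287 bases between Cyp2b9 and Cyp2a4 was at 0 in PF, at 0.164, 0 and 1.01 FPKM in AF and at 1.65, 0 and 0 FPKM in AF with MNA, highest in the 2 libraries with the highest Cyp2b9. An unnamed transcript of 226 bases within Cyp2a21-ps stood at 0, 0 and 0.976 FPKM in PF, at 2.33, 4.32 and 2.52 FPKM in AF and at 0, 1.90 and 1.03 FPKM in AF with MNA, so that PF and AF with MNA overlapped. A transcript of 327 bases within Gm8902 ranged from 3.54 to 8.07 FPKM in PF, 3.08 to 6.01 FPKM in AF and 3.09 to 5.44 FPKM in AF with MNA, with overlapping groups.

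The pseudogene Gm29920, just after Cyp2b13, was listed at 0 in all PF libraries, at 0.84, 0.1 and 1.89 FPKM in AF and at 3.72, 0.81 and 1.81 FPKM in AF with MNA. It was too low to be tested in AF against PF, was called higher in AF with MNA against PF (limma adjusted p = 0.152) and was not called in AF with MNA against AF (adjusted p = 0.966). Like Cyp2b13, it was highest in AF with MNA 1 and, within AF, in AF 3.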
